A study of Mus musculus with 24 samples.

Results

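The collagen gene family was followed in pancreatic islets of NOD mice, which become diabetic spontaneously through autoimmune loss of beta cells. Its members were taken by name: noncontrol probes of the array whose gene name has the form Col, a number, a, a number, and which the scanner software marked as well above background, for the NOD or the pool RNA, on 6 or more of the 24 arrays. The array named 41 such genes through 75 probes, and 34 of them passed, out of 18071 genes tested in all. The brightest passing probe stood for each gene. The other 7 (Col10a1, Col24a1, Col28a1, Col4a3, Col4a5, Col6a6 and Col9a1) were too dim on too many arrays, and Col6a3 and Col21a1 were not analysed here.

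NOD/LtJ mice were studied one by one, 6 females each aged 10 days, 4 weeks, 12 weeks or 20 weeks. Each was compared on its own array with islet RNA pooled from 6 age-matched female NOD.B10Sn-H2b/J mice, which carry the NOD background with another MHC haplotype. Islets of both strains were freed with collagenase, an enzyme that digests the collagen protein itself, and 300 ng of RNA was labelled with Cy5 for the NOD mouse and Cy3 for the pool. All values below are log2(NOD/pool) unless they are called intensities, so 1 is a 2-fold higher and -1 a 2-fold lower level in the NOD mouse. From the labels, the 6 arrays of an age were taken to share a single pool. A test of a ratio against 0 therefore leaves out the control's own spread, the strain and the pool cannot be told apart at any single age, and a change in ratio from one age to the next also carries whatever set the pools of those ages apart. Because each strain kept its dye, a dye effect on a probe cannot be told apart from strain in a ratio against 0. A steady effect of that kind drops out of a difference between ages. In whole islets, fewer cells of a type and less RNA per cell cannot be told apart either.

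Collagens are triple-helical proteins of the extracellular matrix. Fibrillar collagens such as types I, III and V form the tensile fibres of interstitial tissue and are made mainly by fibroblasts and, in the pancreas, by stellate cells. Type IV chains build the sheet-like network of basement membranes, which in the islet underlies the capillary endothelium and lies in the capsule around the islet. Type VI forms beaded filaments between the fibres and the basement membrane, fibril-associated collagens decorate the fibre surface, and the multiplexins, types XV and XVIII, link to basement membranes. Matrix around the islet is one of the barriers that infiltrating leukocytes cross in this model.

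The share of probes with a signal well above background was 42.3% to 64.6% for NOD RNA over the 24 arrays, and 39.3% to 60.4% for pool RNA. The lowest NOD shares were those of 20 week mice 5 and 6. Of the 34 collagens, 22 were well above background in both channels on all 24 arrays, and none was saturated on any array. The tissue label could be checked on 9 beta cell genes, of which 8 were well above background in both channels on every array.

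Most collagens read below the pool in the 10 day mice, with the fibrillar chains Col1a1, Col5a1 and Col1a2 the lowest 3 by mean, and the family lay nearer the pool from 4 weeks on. At 10 days, 9 of the 34 collagens were lower in NOD islets by at least 2-fold at an adjusted p under 0.05, against 2.36% of all genes tested (limma, Benjamini-Hochberg adjustment over 18071 genes). None of the 34 was higher, against 1.62% of all genes, and the number higher at an unadjusted p under 0.05 was also 0. The ratio was below 0 in 30 of the 34. Their median was -0.52, against 0.01 over all genes. The 9 genes lower than the pool by this rule included the fibrillar chains Col1a1, Col5a1, Col1a2 and Col3a1 and the fibril-associated Col14a1 and Col16a1. The others were the multiplexin Col18a1, the type VI chain Col6a1 and the short-chain network collagen Col8a1. No type IV or transmembrane collagen was among the 9. Centring each array on its median in place of loess moved the median of all genes by 0.37 at this age, and 15 of the 34 ratios changed sign, or 6 when set against the median of all genes in each. Of the 9 lower genes, 6 kept their call (Col1a1, Col5a1, Col1a2, Col16a1, Col14a1 and Col3a1).

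**Figure D1:**
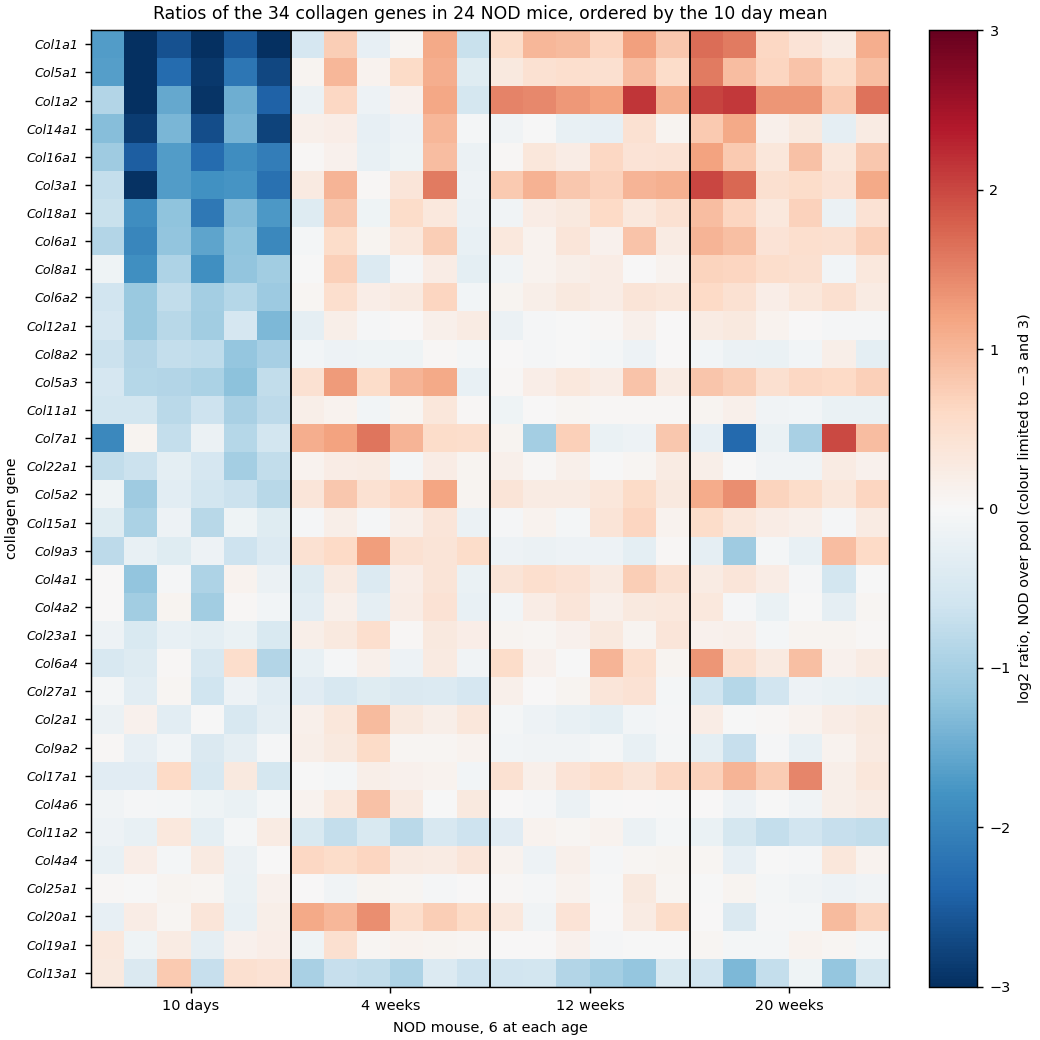
Log2 ratio of NOD over pool for the 34 collagen genes (rows) in each of the 24 NOD mice (columns, 6 per age), ordered by the 10 day mean from the lowest at the top. Col1a1 has the lowest 10 day mean, -3.13, and its later means are 0.08, 0.87 and 0.93.

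Type I collagen is the main fibre of interstitial tissue. Col1a1, which encodes its alpha 1 chain, had the lowest 10 day mean of the 34 genes, with log2 ratios from -4.31 through a median of -3.09 to -1.68 in those mice and an average of -3.13 ± 1.02 (SD, n = 6, limma adjusted p = 3.22e-09). At 4 weeks its ratios ran from -0.66 through -0.10 to 1.13, at 12 weeks from 0.54 through 0.88 to 1.23 and at 20 weeks from 0.24 through 0.85 to 1.68. All 10 day mice lay below all older mice, and all mice of 12 and 20 weeks lay above 0. The means at 12 weeks (0.87 ± 0.25, adjusted p = 0.0147) and at 20 weeks (0.93 ± 0.60, adjusted p = 0.00648; SD, n = 6 each, limma) stayed under the 2-fold threshold. Without 20 week mouse 5 the mean of that age was 1.07 and passed the rule in limma. Mice 1 and 2 of that age, on a slide apart from the other 4, read 1.68 and 1.56. Those other 4 ran from 0.24 to 1.08.

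Its partner chain Col1a2 ranged from -3.24 through -1.98 to -0.89 at 10 days, with a mean of -2.08 ± 0.92 (SD, n = 6, limma adjusted p = 3.05e-07). At 4 weeks the mice spread around the pool, from -0.54 through -0.01 to 1.16. Every mouse of 12 weeks (1.07, 1.38 and 2.15 as lowest, median and highest) and of 20 weeks (0.77, 1.48 and 2.12) was above it. Col1a2 was the only collagen higher than the pool by the 2-fold rule at both late ages, with 1.45 ± 0.38 at 12 weeks (adjusted p = 6.96e-05) and 1.53 ± 0.50 at 20 weeks (adjusted p = 2.04e-05; SD, n = 6 each, limma).

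Col3a1 encodes type III collagen, which copolymerises with type I in soft tissue. Its ratios were -2.97, -1.79 and -0.72 as lowest, median and highest at 10 days, with a mean of -1.86 ± 0.74 (SD, n = 6, limma adjusted p = 6.54e-07). They were -0.16, 0.31 and 1.57 at 4 weeks, 0.68, 0.91 and 1.05 at 12 weeks, and 0.44, 0.84 and 2.00 at 20 weeks. The 10 day mice did not overlap the 4 week mice. At 20 weeks the mean of 1.05 ± 0.68 passed the rule (adjusted p = 0.000647, SD, n = 6, limma), while the 12 week mean of 0.90 ± 0.16 was under 2-fold. The 20 week mice 1 and 2, on a slide apart from the other 4, read 2.00 and 1.72. Those other 4 ran from 0.44 to 1.13.

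Type V collagen is a minor chain family that sits inside type I fibres and sets their diameter. Col5a1 ranged from -3.24 through -2.52 to -1.66 at 10 days (mean -2.50 ± 0.57, SD, n = 6, limma adjusted p = 1.25e-10), and was the second-lowest collagen at that age. Later it ran from -0.36 to 1.08 at 4 weeks, 0.30 to 0.92 at 12 weeks and 0.54 to 1.56 at 20 weeks. Col5a2 had ratios of -1.07, -0.59 and -0.12 at 10 days as lowest, median and highest. In the older mice it was above 0 in all 18, with means of 0.59 ± 0.38 at 4 weeks, 0.35 ± 0.13 at 12 weeks and 0.78 ± 0.39 at 20 weeks (SD, n = 6 each). Col5a3 averaged -0.86 ± 0.24 at 10 days and 0.70 ± 0.56 at 4 weeks (SD, n = 6 each), and the mice of the 2 ages did not overlap.

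**Figure D2:**
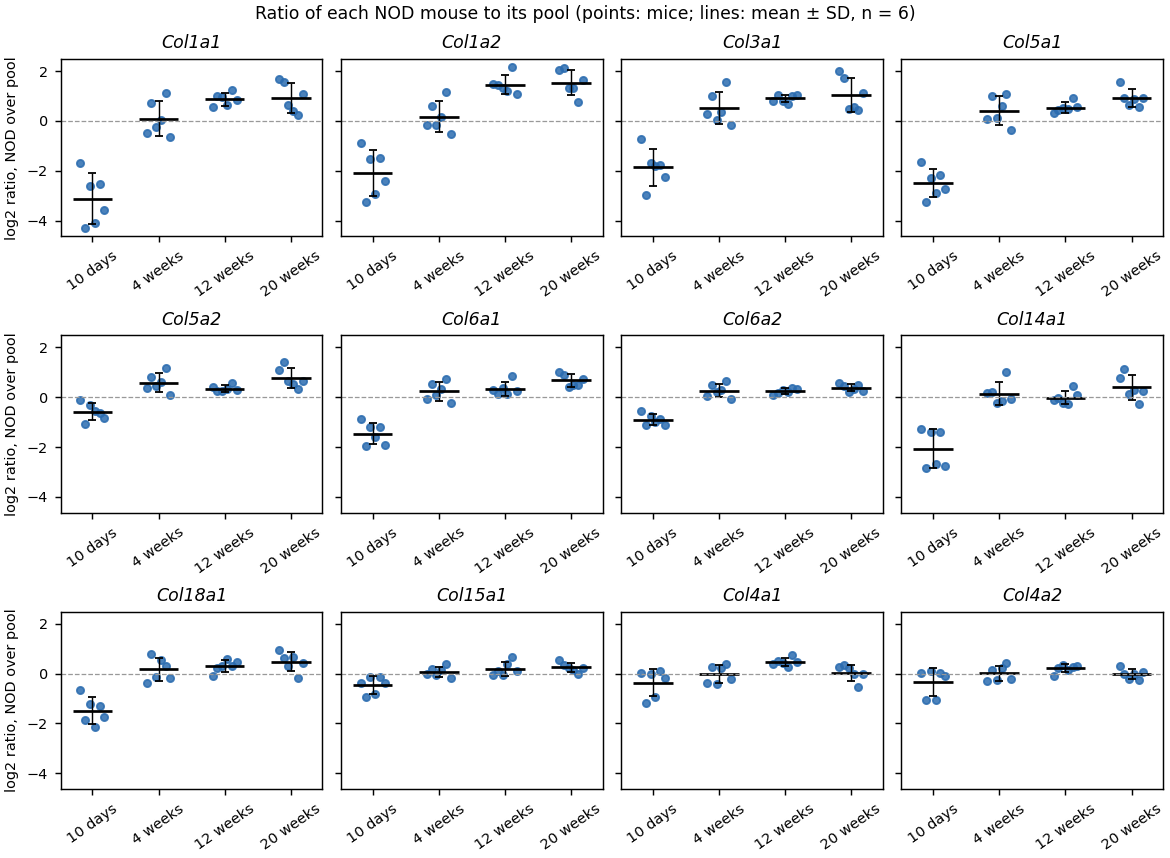
Log2 ratio of each NOD mouse over its pool (y) at the 4 ages (x) for 12 collagen genes, with points for mice and lines for mean ± SD of 6. Col1a1, Col1a2, Col3a1, Col5a1 and Col14a1 have the lowest 10 day means, between -3.13 and -1.86, whereas Col4a1 and Col4a2 average -0.37 and -0.34 there.

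The remaining fibrillar members were Col2a1, Col11a1, Col11a2 and Col27a1, chains best known from cartilage. Col11a1 averaged -0.71 ± 0.17 at 10 days, where all 6 mice were below 0 (limma adjusted p = 1.18e-09), but was near background later: in the pool channel it was above background on 0 of 6 arrays at both 12 and 20 weeks. Col2a1 stayed within -0.48 to 0.95 in all mice. Col11a2 lies in the MHC region, by which the strains differ. It was below the pool in all 6 mice at 4 weeks (mean -0.59 ± 0.15, adjusted p = 4.03e-06) and at 20 weeks (mean -0.57 ± 0.20, adjusted p = 3.41e-06), both under 2-fold, and averaged -0.03 ± 0.25 at 10 days and -0.05 ± 0.18 at 12 weeks (SD, n = 6 each, limma). Col27a1 was also below 0 in all 6 mice at 4 weeks and at 20 weeks, and its means in order of age were -0.23, -0.42, 0.16 and -0.44.

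Type VI collagen was represented by Col6a1, Col6a2 and Col6a4. Col6a1 had ratios from -1.96 through -1.40 to -0.88 at 10 days (mean -1.46 ± 0.44, SD, n = 6, limma adjusted p = 6.56e-09). From 4 weeks on its means were 0.23 ± 0.37, 0.33 ± 0.27 and 0.68 ± 0.25 (SD, n = 6 each), and none of the older mice reached down to the 10 day range. Col6a2, its partner in the heterotrimer, averaged -0.90 ± 0.22 at 10 days and was below 0 in all 6 mice, short of the 2-fold limit (adjusted p = 3.92e-09, limma). Its later means were 0.27 ± 0.27, 0.25 ± 0.12 and 0.39 ± 0.15 (SD, n = 6 each). Col6a4 ran from -0.89 to 0.52 at 10 days, overlapping the 4 week mice, and from 0.12 to 1.33 at 20 weeks.

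Among the fibril-associated collagens, Col14a1 and Col16a1 were the ones lower than the pool by the 2-fold rule at 10 days. Col14a1, which binds fibre surfaces, had ratios of -2.85, -2.04 and -1.27 as lowest, median and highest (mean -2.06 ± 0.78, limma adjusted p = 2.58e-08). Col16a1 had -2.48, -1.97 and -1.06 (mean -1.91 ± 0.51, adjusted p = 7.49e-10; SD, n = 6 each, limma). Both were near the pool at 4 weeks, with means of 0.15 ± 0.45 and 0.09 ± 0.43. Col16a1 was above 0 in all 6 mice at 12 weeks and in all 6 at 20 weeks, where it averaged 0.73 ± 0.34 (SD, n = 6). Col12a1 and Col22a1 were below 0 in all 6 mice at 10 days, at -0.89 ± 0.34 and -0.66 ± 0.25 on average (SD, n = 6 each), and both were at or near background in the pool later. Col20a1 had its highest mean at 4 weeks, 0.90 ± 0.34, and Col19a1 stayed within -0.26 to 0.47 in all mice. Col19a1 was well above background on only 8 NOD and 4 pool arrays of the 24, which limits its ratios.

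Of the multiplexins, Col18a1, the precursor of endostatin, ranged from -2.15 through -1.52 to -0.67 at 10 days (mean -1.49 ± 0.53, SD, n = 6, limma adjusted p = 9.94e-08). At later ages its mice spanned -0.38 to 0.81, -0.10 to 0.60 and -0.18 to 0.93, so the mice of 10 days did not overlap any of them. Col15a1 had a 10 day mean of -0.46 ± 0.35 and later means of 0.07 ± 0.20, 0.19 ± 0.28 and 0.25 ± 0.20 (SD, n = 6 each). The short-chain network collagen Col8a1, made by endothelium and mesenchymal cells, averaged -1.16 ± 0.64 at 10 days (SD, n = 6, limma adjusted p = 2.20e-06), and 1 of its 10 day mice, at -0.13, overlapped the 4 week mice. With the mean of its 2 passing probes in place of the brightest it read -0.69 at 10 days and 0.71 higher at 4 weeks than at 10 days, so both calls were lost. Col8a2 averaged -0.86 ± 0.19 at 10 days and was above background on 0 of 6 arrays in the pool channel at 12 weeks.

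Type IV collagen had smaller ratios at 10 days. Its main chains Col4a1 and Col4a2 are encoded head to head: their annotated starts in RefSeq lie 21 bases apart on opposite strands of chromosome 8 (GRCm38.p6). Col4a1 had ratios of -1.18, -0.11 and 0.10 as lowest, median and highest at 10 days, and Col4a2 had -1.05, -0.04 and 0.09. For both genes 2 mice accounted for the low end, mice 2 and 4, which were also the lowest for Col1a1 at -4.31 and -4.08. Later, Col4a1 averaged -0.02 ± 0.35, 0.47 ± 0.15 and 0.04 ± 0.32 in order of age, and Col4a2 averaged 0.01 ± 0.31, 0.21 ± 0.16 and -0.02 ± 0.21 (SD, n = 6 each). None of the 4 measured type IV genes passed the 2-fold rule at any age or between any neighbouring ages in limma after loess. At an unadjusted p under 0.05, 2 were lower at 10 days, 2 were higher at 4 weeks, 1 was higher at 12 weeks and 0 at 20 weeks. Under median centring both main chains passed at 12 weeks, Col4a1 at 1.46 and Col4a2 at 1.14, which were 0.96 and 0.64 above the shifted median of all genes. At 10 days both ratios changed sign under it, to 0.39 for Col4a1 and 0.42 for Col4a2, or 0.02 and 0.05 above that median. The minor chains Col4a4 and Col4a6, known from specialised basement membranes, averaged 0.00 ± 0.20 and -0.10 ± 0.06 at 10 days and had their highest means at 4 weeks, 0.45 ± 0.18 and 0.31 ± 0.31 (SD, n = 6 each). Their dimmer second passing probes did not repeat the 4 week values, at -0.13 for Col4a4 and 0.02 for Col4a6.

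Set against each other within each mouse, the mean of the 10 fibrillar genes minus the mean of the 4 type IV genes was -1.02 ± 0.24 in 10 day mice and 0.01 ± 0.25 in 4 week mice, followed by 0.27 ± 0.09 in 12 week mice and 0.47 ± 0.20 in 20 week mice (SD, n = 6 each). The 10 day mice ran from -1.28 to -0.57 and did not overlap any other age. The 4 week mice lay on both sides of 0, from -0.31 to 0.42, and all 12 mice of the later ages were above it. Chosen as a description, this difference carries no test. Slides carried 4 arrays each. On the only slide with both 10 day and 4 week mice it averaged -1.18 at 10 days and 0.07 at 4 weeks, with 2 mice each. On the only slide with both 12 and 20 week mice it averaged 0.30 at 12 weeks and 0.72 at 20 weeks, also with 2 mice each. The other 4 mice of 20 weeks, on another slide, averaged 0.35, and the other 4 of 12 weeks averaged 0.25.

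**Figure D3:**
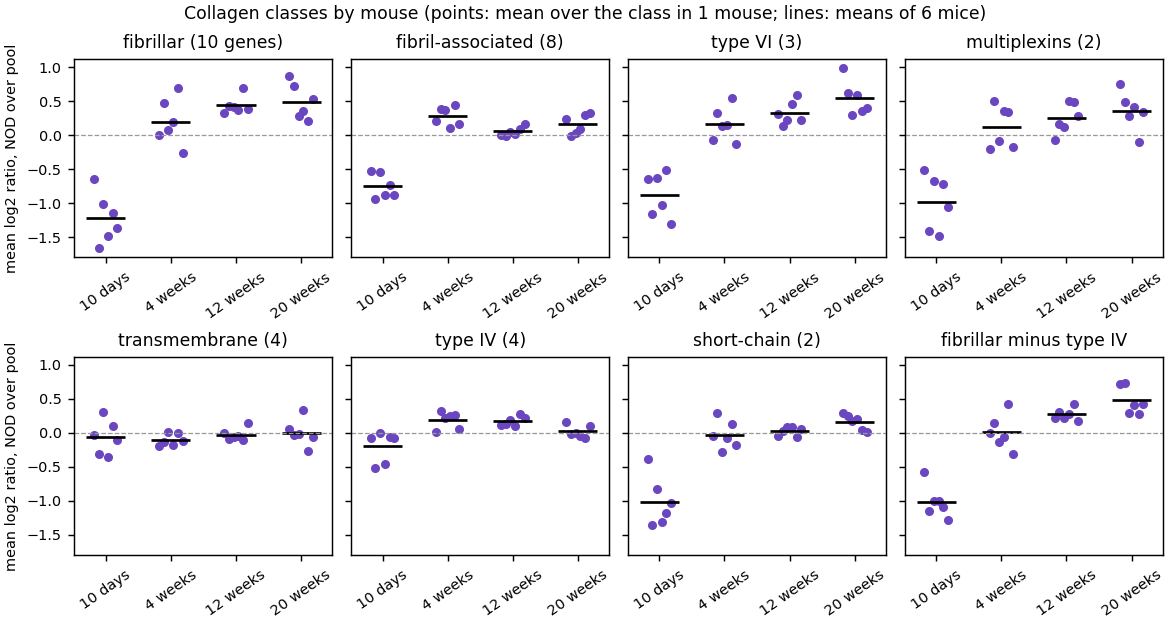
Mean log2 ratio over the genes of each collagen class in 1 mouse (y) by age (x), with a line at the mean of 6 mice; the last panel is the fibrillar mean minus the type IV mean. At 10 days the fibrillar mean is -1.22 and the type IV mean -0.20, and the difference of the 10 day mice lies between -1.28 and -0.57.

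The 2 channels were also read separately. Intensities are log2 values on a scale shared by all arrays, and each is compared only with the same probe. In order of age, Col1a1 averaged 10.67 ± 0.97, 9.81 ± 0.69, 10.68 ± 0.28 and 9.58 ± 0.54 in NOD islets (SD, n = 6 each). The pools of the same ages read 13.79, 9.73, 9.81 and 8.65. The means of Col1a1 thus spanned 1.10 across ages in the NOD channel and 5.14 in the pool channel, and the 10 day pool stood 3.98 above the highest later pool.

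The pool channel spanned more than the NOD channel in other genes lower at 10 days. Col3a1 spanned 1.75 in the NOD channel and 4.67 in the pool channel, Col5a1 1.08 and 4.48, Col1a2 1.12 and 4.21, Col14a1 0.86 and 3.07, and Col18a1 0.82 and 2.79. Col8a1 was closer to even, at 0.90 in the NOD channel and 1.14 in the pool channel. Its NOD mean was lowest at 10 days, at 7.94, and its 10 day pool stood 0.35 above the next highest pool. Over the family, the 10 day pool exceeded every later pool by at least 1 in 12 of the 34 collagens (35.3%), against 3.98% of all genes tested. In the NOD channel the 10 day mean exceeded every later mean by at least 1 in 0 of the 34, against 0.421% of all genes. Col4a1 spanned 1.04 in the NOD channel and 1.79 in the pool channel. Its NOD mean was 10.39 at 10 days and 9.35 at 20 weeks, and its pool mean was 10.75 at 10 days and 9.31 at 20 weeks. Each pool is a single RNA sample, so the level of one pool has no replicate.

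**Figure D4:**
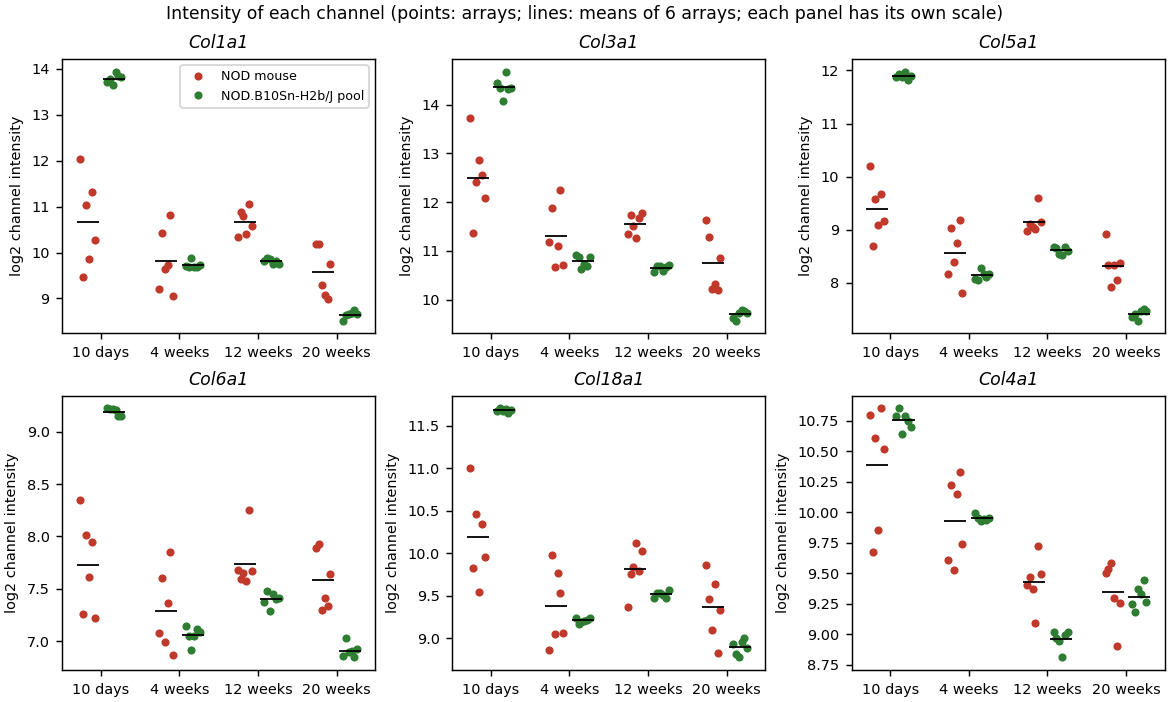
Log2 intensity (y) of the NOD channel (red, left at each age) and the pool channel (green, right) on each array for 6 collagen genes at the 4 ages (x), with lines at the means of 6 arrays. For Col1a1 the pool stands at 13.79 at 10 days and at 9.81 or less later, while the NOD means stay between 9.58 and 10.68.

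Markers of some other cells also differed from the pool at 10 days. All 4 measured adipocyte markers (Adipoq, Fabp4, Cfd and Plin1) were lower in NOD islets by the 2-fold rule, and their mean ratio ran from -1.78 to -1.19 over the 6 mice. Of 8 stellate cell and fibroblast markers 3 were lower (Pdgfrb, Vim and Cspg4), with a mean ratio from -1.08 to -0.36. Of 10 endothelial markers 2 were lower (Cdh5 and Vwf), with a mean ratio from -1.30 to -0.35. Beta cell markers went the other way: 6 of 9 were higher, and their mean ratio ran from 0.45 to 1.83. In intensity, the mean of the stellate list was 8.76 in NOD islets and 9.49 in the pool at 10 days, and the adipocyte mean was 7.53 in NOD islets and 8.94 in the pool. In the pools of later ages the stellate mean was between 7.96 and 8.23 and the adipocyte mean between 6.97 and 7.91. The beta cell mean was 11.46 in NOD islets and 10.28 in the pool at 10 days, whereas the later pools lay between 12.08 and 12.76. Of 5 B cell markers 3 were lower, and of 6 macrophage markers 1 was. Of 9 acinar markers 2 were higher and 1 was lower. None of 5 Schwann cell, 6 duct, 7 T cell or 3 chondrocyte and bone markers passed the rule in either direction. Of all genes tested, 2.36% were lower and 1.62% higher by the same rule. The part of these markers in the collagen ratios was not tested.

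Between 10 days and 4 weeks, 14 of the 34 collagens rose relative to the pool, against 5.16% of all genes, and 0 fell, against 3.85% (limma; 2 were lower at an unadjusted p under 0.05). Their median difference was 0.80, against -0.01 over all genes. The groups of mice did not overlap for 23 of the 34 collagens, against 26.7% of all genes. Col1a1 rose by 3.21 ± 0.38 (SE, n = 6 per age, limma adjusted p = 8.69e-07), with a 4 week mean of 0.08 and a 10 day mean of -3.13. Col5a1 rose by 2.91 ± 0.25 (adjusted p = 1.46e-08), Col3a1 by 2.38 ± 0.33 (adjusted p = 5.02e-06) and Col1a2 by 2.25 ± 0.35 (adjusted p = 1.84e-05; SE, limma). The others that rose were Col14a1, Col16a1, Col7a1, Col6a1, Col18a1, Col5a3, Col8a1, Col5a2, Col6a2 and Col9a3, by 1.04 to 2.20. By class these were 6 of 10 fibrillar, 3 of 8 fibril-associated, 2 of 3 type VI, 1 of 2 multiplexin, 1 of 2 short-chain and 0 of 4 type IV genes. Type IV differences were close to one another, from 0.35 to 0.45.

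The ratios of cell markers to the pool differed over the same step. All 4 adipocyte ratios rose, with a mean of 0.35 at 4 weeks and -1.41 at 10 days. Of 8 stellate cell and fibroblast ratios 3 rose, with a mean of 0.28 at 4 weeks and -0.73 at 10 days. Acinar ratios rose in 6 of 9, with a mean of 1.47 at 4 weeks and 0.10 at 10 days. All 9 beta cell ratios fell, with a mean of -0.93 at 4 weeks and 1.18 at 10 days. In intensity, the beta cell mean at 10 days and 4 weeks was 11.46 and 11.77 in NOD islets and 10.28 and 12.70 in the pools. The adipocyte mean was 7.53 and 7.33 in NOD islets and 8.94 and 6.97 in the pools. The stellate mean was 8.76 and 8.24 in NOD islets and 9.49 and 7.96 in the pools. The acinar mean was 15.70 and 16.68 in NOD islets and 15.60 and 15.22 in the pools. The part of these markers in the collagen differences was not tested.

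The NOD intensity itself was lower at 4 weeks for several genes whose ratio rose. Col1a1 read 9.81 at 4 weeks and 10.67 at 10 days in the NOD channel, and Col3a1 read 11.30 at 4 weeks and 12.50 at 10 days. With slide as a fixed block, which takes the difference from the slide holding both ages and was added after the data were seen, 15 collagens rose, and Col1a1 differed by 3.15 (adjusted p = 0.0238, limma). Col1a2 at 2.16 (adjusted p = 0.0625) and Col8a1 at 1.48 (adjusted p = 0.0524, limma) no longer passed. Centring each array on its median in place of loess shifted the median of all genes by -0.60 in this difference. Only 4 of the 14 (Col1a1, Col5a1, Col3a1 and Col14a1) kept their call under it, and relative to the resulting median Col1a1 differed by 2.72.

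Between 4 and 12 weeks 1 of 34 collagens rose, against 2.98% of all genes. None fell, against 3.08% (limma; 7 were lower at an unadjusted p under 0.05). The gene that rose was Col1a2, by 1.27 ± 0.35 (SE, n = 6 per age, limma adjusted p = 0.00623), although the lowest 12 week mouse overlapped the 4 week mice. The groups did not overlap for 6 of the 34, against 25.3% of all genes. Between 12 and 20 weeks none of 34 collagens passed the 2-fold rule in limma, against 2.01% of all genes higher and 0.404% lower. At an unadjusted p under 0.05, 2 were higher and 4 were lower. Groups did not overlap for 2 of the 34, against 12.3% of all genes. Over the 4 ages together, the moderated F test in limma called 31 of 34 collagens at an adjusted p under 0.05, against 76% of all genes.

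At 4 weeks the only collagen higher than the pool was Col7a1, 1 of 34 against 1.91% of all genes, and 0 were lower, against 0.88% (limma; 3 were lower at an unadjusted p under 0.05). Col7a1 makes the anchoring fibrils that fix epithelial basement membranes to the underlying matrix. All 6 mice were above the pool, from 0.54 through 1.06 to 1.61 (mean 1.00 ± 0.41, SD, n = 6, limma adjusted p = 0.021), but the call was lost with slide as a random block, at 0.99, and under median centring, at 0.68, which was 0.83 above the shifted median of all genes. At 10 days its mice ran from -1.94 to 0.07, at 12 weeks from -1.01 to 0.81 and at 20 weeks from -2.33 to 1.99, the widest range of any member at any age. Of 9 acinar cell genes, 8 were higher at 4 weeks. The 20 week mouse with the highest Col7a1, at 1.99, had the highest mean of 9 acinar genes, at 2.12, and the mouse with the lowest Col7a1, at -2.33, had the lowest, at -2.46. Col20a1 and Col9a3 were highest and lowest in those mice too, at 0.95 and -0.43 for Col20a1 and 0.93 and -1.06 for Col9a3. The part of acinar RNA in these ratios was not tested.

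At 12 weeks 1 of 34 collagens was higher, against 2.09% of all genes, and at 20 weeks 2 of 34, against 3.87%. These were Col1a2 at both ages and Col3a1 at 20 weeks, described above. None of the 34 was lower at either age, against 1.42% of all genes at 12 weeks and 1.23% at 20 weeks (limma; 1 and 3 were lower at an unadjusted p under 0.05). Below the 2-fold limit, the median of the 10 fibrillar genes was 0.33 at 12 weeks and 0.72 at 20 weeks, against 0.03 and 0.00 over all genes, and the median of the 4 type IV genes was 0.12 and 0.03. Leukocyte and stromal markers differed in the same samples: 6 of 7 T cell markers and 4 of 5 B cell markers were higher at each of these ages, and of the 8 stellate and fibroblast markers Pdgfrb, Thy1 and Vim were higher at 12 weeks and Thy1 and Vim at 20 weeks. Thy1 is also carried by T cells and Vim by leukocytes. Of 6 macrophage markers, 1 was higher and 1 lower at 12 weeks and 3 were higher at 20 weeks, with a mean ratio from 0.07 to 0.79 at 12 weeks and from 0.70 to 1.68 at 20 weeks. Of 6 duct markers 2 were lower at 12 weeks, where their mean ran from -1.14 to -1.03, and of 4 adipocyte markers 1 was, with a mean from -0.76 to -0.43. The mean stellate ratio ran from 0.58 to 0.99 at 12 weeks and from 0.41 to 1.29 at 20 weeks, and the part of these markers in the collagen ratios was not tested. Of the 9 beta cell markers, 4 were lower at 12 weeks and 9 at 20 weeks. Under median centring in place of loess, which moved the median of all genes by 0.48 at 12 weeks and -0.21 at 20 weeks, Col1a2 kept its call at 12 weeks and neither gene kept it at 20 weeks.

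Of the 4 transmembrane collagens, Col13a1, a cell-surface collagen of adhesion sites, was below the pool in every mouse from 4 weeks on, with means of -0.72 ± 0.20, -0.78 ± 0.29 and -0.74 ± 0.45, while at 10 days it averaged 0.15 ± 0.57 (SD, n = 6 each). None of these passed the 2-fold rule, though the adjusted p was 0.000593, 0.000436 and 0.000422 at the 3 later ages (limma). A second passing probe, with a mean log2 intensity of 6.45 where the reported one had 9.14, gave -0.21, -0.05 and -0.14 at those ages. With slide as a fixed block Col13a1 was called lower at 4 weeks than at 10 days, by -1.29 (adjusted p = 0.0361, limma). Under median centring in place of loess it passed at 4 weeks at -1.08 and at 20 weeks at -1.23, and its 12 week ratio changed sign to 0.17, which was -0.33 relative to the shifted median of all genes. Col17a1, the hemidesmosome collagen of epithelia, was not well above background in the pool at 12 and 20 weeks. It was at least 1.33-fold higher in NOD islets at 12 weeks (adjusted p = 0.0145) and at least 1.65-fold higher at 20 weeks (adjusted p = 7.80e-05, limma), where 5 of the 6 NOD arrays measured it. Col23a1 and Col25a1 stayed within -0.47 to 0.51 and -0.19 to 0.28 in all mice. Col25a1 was well above background on only 8 NOD and 4 pool arrays of the 24, which limits its ratios.

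Genes that build, cut or bind collagen were counted from lists chosen with these data known. Of 24 measured enzymes and chaperones of collagen production, 6 were lower and 1 was higher at 10 days, against 2.36% and 1.62% of all genes. Adamts2, which removes the procollagen amino-terminal propeptide, had a ratio of -2.71 ± 0.74 (limma adjusted p = 7.69e-11). Loxl1, a crosslinking enzyme, had -1.68 ± 0.53 and Pcolce, an enhancer of propeptide cleavage, -1.45 ± 0.59, and Fkbp10, Sparc and Lox were lower too. P4ha1, a prolyl hydroxylase subunit, was the higher one, at 1.08 ± 0.35 (SD, n = 6 each). The list median was -0.29, against 0.01 over all genes. Between 10 days and 4 weeks 7 of the 24 rose and 0 fell, against 5.16% and 3.85% of all genes. Pcolce was the only 1 of the 24 higher than the pool at 12 weeks (1.25 ± 0.26) and at 20 weeks (1.39 ± 0.48), and 0 were lower. Of all genes, 2.09% were higher at 12 weeks and 3.87% at 20 weeks, and 1.42% and 1.23% were lower. The list medians at these ages were 0.14 and 0.04.

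Among all genes tested, 2.36% were lower at 10 days, 1.42% lower at 12 weeks and 3.87% higher at 20 weeks by the 2-fold rule. Fibre-binding proteoglycans gave 3 of 7 lower at 10 days: Lum at -2.12 ± 0.72, Ogn at -1.46 ± 0.53 and Dcn at -1.44 ± 0.61. At 20 weeks 3 of 7 were higher: Prelp at 1.61 ± 0.44, Dcn at 1.53 ± 0.66 and Lum at 1.33 ± 0.49 (SD, n = 6 each, limma). Their median was -0.98 at 10 days and 0.96 at 20 weeks. Of 9 collagen-degrading enzymes and inhibitors, Mmp14, Timp2 and Mmp2 were lower at 10 days, with ratios of -1.69 ± 0.58, -1.46 ± 0.81 and -1.11 ± 0.40, and Mmp14, a membrane-bound collagenase, was higher at 20 weeks (1.33 ± 0.28). Timp1 was lower at 12 weeks (-1.44 ± 0.19). Of 7 collagen receptors only Itga11, an integrin subunit for fibrillar collagen, was lower at 10 days, at -1.70 ± 0.42 (SD, n = 6, limma adjusted p = 1.11e-09).

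Of 14 measured basement membrane partners of type IV, 4 were lower at 10 days: Agrn at -1.75 ± 0.37, Hspg2 (perlecan) at -1.65 ± 0.59, Lama5 at -1.22 ± 0.13 and Nid1 at -1.20 ± 0.48 (SD, n = 6 each, limma). Their median was -0.63, against -0.22 for the 4 type IV genes. The share of all genes lower at that age was 2.36%. At 4, 12 and 20 weeks 0 of the 14 passed the rule, and their medians were -0.01, 0.04 and 0.10. Of all genes, 1.91%, 2.09% and 3.87% were higher at these ages, and 0.88%, 1.42% and 1.23% were lower.

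For 15 of the 34 collagens a second passing probe allowed the ratio to be read again. The second Col1a1 probe gave -2.17 at 10 days, where the reported one gave -3.13, and the second Col18a1 probe gave -0.82, where the reported one gave -1.49. The second probes of Col4a1 and Col4a2 gave -0.42 and -0.57 at 10 days. Col4a6 was the type IV exception at 10 days, since its slightly dimmer second probe gave -1.20 there and the reported one -0.10. At 4 weeks the second Col4a4 probe gave -0.13, where the reported one gave 0.45. The second probe of Col3a1, with a mean log2 intensity of 6.17 where the reported one had 11.40, gave -0.40.

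The triple helix of a collagen repeats glycine and a pair of other residues. Of the 75 collagen probes, 3 held at least 5 glycine codons (GGN) spaced 9 bases apart. They are shown because 2 of them disagree with the reported probe of the same gene, and capitals mark the glycine codons in that register. The Col5a1 probe spans chr2:27842243-27844666, that of Col11a2 chr17:34189287-34189453 and that of Col5a3 chr9:20590066-20590795 (mm9, from the array files; Col5a3 on the minus strand, the others on the plus strand).
Col5a1: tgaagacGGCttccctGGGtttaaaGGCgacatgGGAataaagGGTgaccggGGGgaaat
Col11a2: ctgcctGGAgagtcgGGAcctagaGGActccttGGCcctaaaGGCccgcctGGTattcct
Col5a3: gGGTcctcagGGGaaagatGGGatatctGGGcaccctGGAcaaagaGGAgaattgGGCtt

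None of the 3 was the reported probe of its gene. The helix probe of Col5a1 had a mean log2 intensity of 6.31 and a 10 day ratio of -0.17, whereas the reported probe had 8.94 and -2.50. For Col11a2 the helix probe had an intensity of 6.24 and a 4 week ratio of 0.16, and the reported probe had 7.22 and -0.59. The helix probe of Col5a3 did not pass the filter on dim probes. The offset of 50 added to each channel draws the ratios of dim probes toward 0.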

How the data were processed

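The members and gene lists were chosen with earlier results of these data known. Per the file headers, Feature Extraction 10.7.3.1 wrote the scanner files of design 014868 (mm9), which hold the intensity of each channel and a log10 ratio for 45018 spots, of which 1639 were controls. The deposited value table holds log2 ratios. Its columns were checked against the scanner log10 ratio turned to log2 (r at least 0.9998), were not centred (medians -0.182 to 0.0868), and served as an alternative.

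The software was limma 3.58.1 under R 4.3.3; statmod 1.5.0 served the slide block. Intensities were corrected by normexp (offset 50) and normalized by loess within arrays; outlier spots were set to missing (44 ratios, 0 in collagens). Probes well above background in a channel on 6 arrays were kept (25910 of 41174), the brightest per gene. A linear model in limma gave each age its own mean over all 24 arrays; a call needed an adjusted p under 0.05 and 2-fold. Channel intensities were scaled between arrays by Aquantile. Array number limits precision. The fit was tested on simulated data. Genes with full values were fixed fibrillar, type IV, VI, multiplexin and MHC-region members plus any other member called; list examples are the called genes, largest first. Alternatives covered signals, centring, filters, probes, blocks, 20 week arrays 5 and 6, and the fold floor.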

Additional observations from a re-analysis of the deposited data

Results flagged for a closer look

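Single mice stood apart from the other 5 of their age in 6 of the 104 groups of 6 that were checked, where chance gives about 1 in 20. At 4 weeks mouse 5 read 1.00 for Col14a1, with the others from -0.25 to 0.20, and 0.92 for Col16a1, with the others from -0.22 to 0.12. Mouse 3 of that age read 1.25 for Col9a3, with the others from 0.39 to 0.59. At 12 weeks mouse 5 read 0.86 for Col5a3 and 0.85 for Col6a1, with the others from 0.05 to 0.30 and from 0.11 to 0.36. The fibrillar mean of that mouse was 0.70, with the others from 0.32 to 0.43.

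The ratio differed between neighbouring ages by limma's test of the difference itself for 14 collagens from 10 days to 4 weeks. The later minus the earlier mean was 3.21 for Col1a1, 2.91 for Col5a1, 2.38 for Col3a1, 2.25 for Col1a2, 2.20 for Col14a1, 2.00 for Col16a1, 1.70 for Col7a1 and 1.69 for Col6a1. It was 1.66 for Col18a1, 1.56 for Col5a3, 1.20 for Col8a1, 1.17 for Col5a2, 1.16 for Col6a2 and 1.04 for Col9a3. From 4 to 12 weeks it was 1.27 for Col1a2. Each of these differences includes that between the pools of its 2 ages, which was not tested.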

How the results depend on the processing

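Every count below is of the 34 collagens, and a cause was not tested for any change unless stated. At 10 days 9 were lower, against 15 with the scanner's processed signals and 15 with the table that was deposited. Median centring gave 6 and no fold floor gave 22. The scanner's signals kept all 9, while the mean of a gene's probes lost Col8a1. At 4 weeks 1 was higher, against 5 with the scanner's signals, 5 with the deposited table, 0 with median centring, 0 with slide as a random block and 11 with no fold floor, and 0 were lower, against 1, 1, 1 with median centring and 3 with no floor. At 12 weeks 1 was higher, against 5 with the scanner's signals, 4 with the deposited table, 12 with median centring (23.6% of all genes) and 9 with no floor, and 0 were lower, against 2, 2 and, with no floor, 1. At 20 weeks 2 were higher, against 6 with the scanner's signals, 5 with the deposited table, 0 with median centring, 1 with the mean of a gene's probes and 14 with no floor, and 0 were lower, against 2, 2, 1 with median centring and 3 with no floor. Between 10 days and 4 weeks 14 rose, against 21 with the scanner's signals and 21 with the deposited table. Median centring gave 4, no floor gave 25, and the mean of a gene's probes gave 13 and lost Col8a1. In that step 0 fell, against 3 with median centring, 2 with no floor and 1 with slide as a fixed block. Between 4 and 12 weeks 1 rose, against 2 with the scanner's signals, 13 with median centring (39.2% of all genes) and 3 with no floor, and 0 fell, against 2 with the scanner's signals, 2 with the deposited table, 1 with slide as a random block and 6 with no floor. Between 12 and 20 weeks 0 fell, against 1 with the scanner's signals, 13 with median centring (42.3% of all genes) and 2 with no floor. The fibrillar minus type IV ratio of -1.02 at 10 days became -1.28 with the scanner's signals and -1.28 with the deposited table. It became -0.60 with the mean of a gene's probes. That mean takes in further probes of both classes. Among these, the second probe read -0.17 for Col5a1 (reported -2.50) and -1.20 for Col4a6 (reported -0.10). The part of each in the change was not tested. No fold floor lowers the threshold by construction. Over the 7 comparisons and both directions, the share of all genes called was 0.404% to 5.16% as reported, 4.87% to 14.4% with the scanner's signals, 3.97% to 12.6% with the deposited table and 11.2% to 27.2% with no floor.

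Median centring called 111 of all 18071 genes higher and 5794 lower between 10 days and 4 weeks, where loess called 932 and 696. It called 23 higher and 7642 lower between 12 and 20 weeks, where the median of all genes moved by -0.75. In that difference 21 of the 34 collagens changed sign, or 16 when set against the median of all genes in each. Among the genes with full values 6 of these were also called: Col16a1 at -1.13, Col18a1 at -1.38, Col1a1 at -1.52, Col1a2 at -1.58, Col3a1 at -1.53 and Col8a1 at -1.02, which were -0.35, -0.60, -0.74, -0.80, -0.75 and -0.24 relative to the shifted median. The share of calls over all genes that were higher ran from 0.3% to 99.6% over the 7 comparisons under median centring, 34.5% to 64.3% with the scanner's signals and 39.1% to 60.6% with the deposited table, against 40.6% to 83.3% as reported.

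The numbers of the mice only name them: same-numbered mice of different ages correlated at -0.032 on average over 36 pairs, and with the number as a replicate block the counts stayed at 9 lower at 10 days, 1, 1 and 2 higher at 4, 12 and 20 weeks, and 14 and 1 higher in the first and second steps. Without 20 week mouse 5, and without mice 5 and 6, 3 collagens were higher at 20 weeks in place of 2, as Col1a1 passed at 1.07 in both, and the other call counts against the pool and between ages stayed as reported. Over single genes and alternatives, 1184 values kept their side of the threshold, of which 1114 kept direction and 70 changed sign without a call, 84 gained a call, 22 lost one and 6 reversed. Dim probes limit the ratios of the 8 collagens below background in the 12 week pool.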

Other observations

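Outside the name rule, 2 probes belong to collagens by their accession. The probe named Emid2, for Col26a1, averaged -0.62 ± 0.67 at 10 days (SD, n = 6, limma adjusted p = 0.0013) and 0.10 ± 0.31, 0.20 ± 0.07 and -0.11 ± 0.16 at 4, 12 and 20 weeks. The probe named Gm7455, for Col6a5, averaged 0.05 ± 0.37, 0.03 ± 0.19, 0.22 ± 0.13 and 0.12 ± 0.22 at the 4 ages.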
